A study of Homo sapiens with 4 samples.

Results

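The genes of the pre-B-cell receptor and of the first steps of its signaling were examined in Nalm-6 cells, an established human line of pre-B leukemia cells. Of the 9 genes, *VPREB1* and *IGLL1* encode the surrogate light chain and *VPREB3* encodes a protein related to VPREB1. *CD79A* and *CD79B* encode the signal chains, *LYN*, *SYK* and *BTK* encode kinases, and *BLNK* encodes an adaptor. The 9 genes were chosen by name and by role, not by a threshold on measured values, but with earlier results of these data known. A probe was taken for a gene when the transcript it was designed for belongs to that gene, which gave 11 of 41000 probes. These 9 genes stand among 17721 genes named by a probe on the array. *IGLL1* has 3 probes and each other gene has 1.

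Total RNA of unstressed cells was hybridized to single-color arrays, with 1 array for each of 4 groups. The groups are wild-type cells, Arp5 KO cells, cells labelled Arp8 KO and cells labelled Arp8 overexpression. Arp5 and Arp8 are actin-related subunits of the INO80 chromatin remodeling complex, and each locus was disrupted by homologous recombination. Each KO stands for 1 established line, so a line and its genotype cannot be told apart. In the description of the series, overexpression of Arp8 came from a transgene under the Tet-Off system, which tetracycline shuts off, and that transgene is tied to the Arp8 KO cells. How the culture labelled Arp8 overexpression relates to the culture labelled Arp8 KO is not stated further. All 4 arrays lay on 1 slide and came from 1 scan. Of 43376 spots other than controls, 31188 were well above background on the wild-type array, 31420 on the Arp5 KO array, 30394 on the array labelled Arp8 KO and 30803 on the array labelled Arp8 overexpression. With 1 array per group no difference has a replicate check, no p-value is given, and the number of arrays limits the precision. Of the 4 comparisons made, 3 use the same wild-type array, so their values are given side by side.

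The pre-B-cell receptor is the checkpoint of early B-cell development. A newly made heavy chain pairs with the surrogate light chain, which VPREB1 and the IGLL1 protein (lambda 5) form before any light chain is made. CD79A and CD79B carry the signal into the cell through tyrosine motifs in their tails. LYN, a Src family kinase, phosphorylates these motifs, SYK binds them and is activated, and SYK then phosphorylates the adaptor BLNK, which brings BTK to phospholipase C gamma. VPREB3 is a B-lineage protein related to VPREB1 that binds immunoglobulin chains inside the cell. E proteins, EBF1, RUNX1 and OCT factors are regulators of B-lineage genes, and short DNA motifs are known for each.

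The promoters of 4 members are shown because their signals differed most between arrays or because they make up the surrogate light chain. RefSeq promoter windows (GRCh38.p14) were found for 7 of the 9 genes, not for *CD79B* and *LYN*. Only the 250 bases before the start site were read. Capitals mark CCCNNGGG (the EBF core), ATGCAAAT (the octamer) and TGTGGT (RUNX), each searched on both strands. *VPREB1* lies at chr22:22244536-22244785 on the plus strand, *VPREB3* at chr22:23754426-23754675 on the minus strand, *IGLL1* at chr22:23580291-23580540 on the minus strand, and *CD79A* at chr19:41877029-41877278 on the plus strand. The sequences run 5′ to 3′ on the strand of the gene.
VPREB1: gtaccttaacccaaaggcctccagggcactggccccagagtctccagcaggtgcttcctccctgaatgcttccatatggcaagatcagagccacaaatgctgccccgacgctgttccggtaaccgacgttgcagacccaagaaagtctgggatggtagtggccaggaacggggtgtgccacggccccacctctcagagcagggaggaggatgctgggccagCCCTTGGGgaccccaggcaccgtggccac
VPREB3: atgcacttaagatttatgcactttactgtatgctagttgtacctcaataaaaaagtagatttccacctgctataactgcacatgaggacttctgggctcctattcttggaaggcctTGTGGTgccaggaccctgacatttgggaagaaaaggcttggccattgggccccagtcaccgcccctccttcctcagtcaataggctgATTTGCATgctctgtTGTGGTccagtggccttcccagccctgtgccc
IGLL1: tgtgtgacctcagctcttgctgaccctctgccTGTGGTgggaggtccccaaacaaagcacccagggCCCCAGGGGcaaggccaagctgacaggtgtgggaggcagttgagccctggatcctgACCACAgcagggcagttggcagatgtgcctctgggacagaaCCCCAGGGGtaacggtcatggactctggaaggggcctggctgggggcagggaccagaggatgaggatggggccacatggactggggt
CD79A: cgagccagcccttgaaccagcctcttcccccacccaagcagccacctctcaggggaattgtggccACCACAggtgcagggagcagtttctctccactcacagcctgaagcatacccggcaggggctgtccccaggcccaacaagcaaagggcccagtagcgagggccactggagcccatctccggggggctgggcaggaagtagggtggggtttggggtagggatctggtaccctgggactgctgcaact
The octamer was found in the window of *VPREB3*, from 47 to 40 bases before the start site, and in none of the other 6 genes with a window. It occurs in 1.63% of 35116 promoter windows of this length. *VPREB3* also holds 2 matches to TGTGGT, and so does *IGLL1*, while *CD79A* holds 1. That motif occurs in 11.0% of all windows. The EBF core was found in *VPREB1*, *IGLL1* and 1 of 2 windows of *BTK*, and in 17.1% of all windows. It is its own reverse complement, and in *IGLL1* 4 matches lie as 2 overlapping pairs. The E-box CANNTG, which is too common to mark, was found in all 7 genes and in 61.8% of all windows. It was absent from 1 of 3 windows of *SYK* and 1 of 2 windows of *BTK*. In *CD79A* the match to TGTGGT shares 2 bases with an E-box. A match describes letters in the window and shows no binding.

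Signals are given in the scanner's processed units, and a log2 ratio compares 2 arrays after each was scaled to its own 75th percentile. A probe was called beyond 2-fold when its log2 ratio was at least 1 in size and the brighter array was well above background. Since probes differ in binding, the signals of different probes are not read as relative amounts of RNA, and the brightest gene of a marker list is named as the one that adds most to its summed signal. All 11 probes were well above background on all 4 arrays, with signals from 3808 to 140829 units, and no spot was saturated. The scanner software gave every ratio of these probes an error of 0.20 (log2). That value is the same for all 11 probes at this brightness and stems from the software's error model. The spread of probes printed 5 or more times was smaller, with a median SD of a log2 ratio of 0.03 in each of the 4 comparisons for probes over 3000 units. Neither error holds the variation between cultures.

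**Figure D1:**
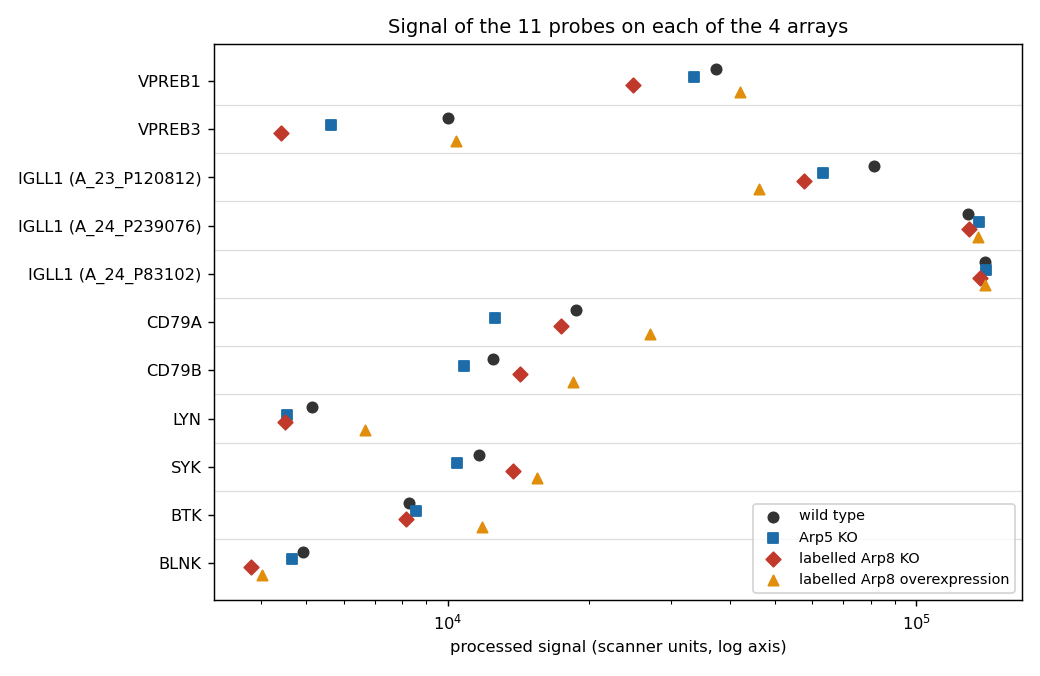
Processed signal (x axis, scanner units, log axis) of each of the 11 probes (y axis) on the 4 arrays, 1 point per array. The points of *VPREB3* fall in 2 pairs, at 10010 and 10447 units on the wild-type array and the array labelled Arp8 overexpression and at 5641 and 4411 units on the arrays labelled Arp5 KO and Arp8 KO.

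The targeted genes were read first as a check of the labels. *ACTR5*, which encodes Arp5, gave 1909 units on the wild-type array against 65.3 units on the Arp5 KO array, a log2 ratio of -4.85. The 2 probes of *ACTR8*, which encodes Arp8, gave 1092 and 2149 units on the wild-type array and 785 and 1654 units on the array labelled Arp8 KO, log2 ratios of -0.49 and -0.40. On the array labelled Arp8 overexpression they gave 679 and 1857 units, log2 ratios of -0.71 and -0.23. Both probes were thus below wild type on the array labelled Arp8 overexpression, against that label. Whether either probe lies in the disrupted part of the gene or in the transgene is not known here. The names of both Arp8 arrays are therefore written as labels.

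Cell type markers were read next. Of 14 listed pro-B and pre-B cell markers 13 have a named probe, and all 13 were well above background on every array, among them *PAX5*, *EBF1*, *DNTT* and *RAG1*. The summed signal of their probes was 367257 units on the wild-type array, 366759 on the Arp5 KO array, 327897 on the array labelled Arp8 KO and 339074 on the array labelled Arp8 overexpression, with *LEF1* the brightest on each. *CD9* was lower beyond 2-fold in Arp5 KO (log2 ratio -1.58), and its ratios to wild type were -0.83 and -0.82 on the 2 Arp8 arrays. *IL7R*, the interleukin 7 receptor chain, was lower on the array labelled Arp8 KO (-1.10), as was *CD34* (-1.08 on 1 of 2 probes, with a bound of at most -0.81 on the other, which was not well above background there). On the array labelled Arp8 overexpression *CD34* (-1.10 and -0.60 on the same probes) and *ERG* (-1.06 on 1 of 3 probes) were lower. *IL7R* was at -0.89 there and at 0.18 in Arp5 KO. The same *ERG* probe was at -0.78 on the array labelled Arp8 KO and at -0.23 in Arp5 KO. These calls are therefore not read as particular to 1 array. Lower beyond 2-fold were 1 of 21 probes in Arp5 KO and 2 of 21 on each Arp8 array. Of all tested probes 1.14% were lower in Arp5 KO, 2.07% on the array labelled Arp8 KO and 2.76% on the array labelled Arp8 overexpression. Both probes of *CD34* were under 50 units on every array, and its values of -1.08 and -1.10 came to -0.42 and -0.37 with normexp, a background correction that adds 50 units. The median log2 ratio of this list was -0.05 in Arp5 KO, -0.35 on the array labelled Arp8 KO and -0.46 on the array labelled Arp8 overexpression. Of 6 mature B-cell markers with a probe 4, 2, 2 and 3 were well above background on the arrays of wild type, Arp5 KO, labelled Arp8 KO and labelled Arp8 overexpression, with summed signals of 95.3, 77.5, 77.2 and 133 units. *CD27* was the brightest of them on the first 3 arrays and *MS4A1* on the last, at 48.9 units. *MS4A1*, which encodes CD20, was the 1 gene of this list beyond 2-fold, with 1.93 on the array labelled Arp8 overexpression over wild type and a bound of at most -2.37 between the 2 Arp8 arrays. With normexp the first came to 0.59 and the second was also under 2-fold.

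Markers of other lineages differed between arrays in places. The myeloid list has 8 genes, of which *MPO* and *FCGR3A* were not well above background on any array. Its summed signal was 1148 units on the wild-type array, 1525 on the Arp5 KO array, 4503 on the array labelled Arp8 KO and 2843 on the array labelled Arp8 overexpression. *CD33*, the brightest of the list, gave 587, 854, 2792 and 1703 units in the same order on the brighter of its 2 probes. On the array labelled Arp8 KO over wild type 3 of 7 tested probes were higher beyond 2-fold, both of *CD33* (2.23 and 2.06) and that of *LYZ*, which encodes lysozyme (1.35). Higher on the array labelled Arp8 overexpression were 4 of 7, the same probes (1.51, 1.31 and 1.31) and that of *CSF1R*, a growth factor receptor (1.17). No probe was lower, and in each of these comparisons 1.48% of all probes were higher. With normexp *LYZ* (0.75 and 0.71) and *CSF1R* (0.19) came under 2-fold. The median log2 ratios of the list were 0.01 in Arp5 KO, 0.94 and 1.17 on the Arp8 arrays in this order over wild type, and 0.30 between the 2 Arp8 arrays. In Arp5 KO and between the 2 Arp8 arrays 0 probes were beyond 2-fold. *LYN*, *SYK* and *BTK* are also used by myeloid cells, and the part of this list in their values was not tested. Of 9 T or NK cell markers 5 were well above background on each array, *CD3D* and *CD3G* were among the 4 that were not, and summed signals of 5825, 6608, 4974 and 7077 units came mostly from *CD4*. Of 7 erythroid or megakaryocyte markers *GATA1* and *HBB* were among those not well above background on any array, and the summed signals were 254, 252, 274 and 233 units, with *HBA1* the brightest. In these 2 lists 0 probes were beyond 2-fold in the 4 comparisons. All 5 plasma cell markers were well above background on each array, with *XBP1* the brightest and summed signals of 177809, 163612, 155961 and 185695 units. The median log2 ratio of this list to wild type was -0.05 in Arp5 KO, -0.26 on the array labelled Arp8 KO and 0.12 on the array labelled Arp8 overexpression. *TNFRSF17*, a receptor of plasma cells, and *PRDM1*, which encodes the factor BLIMP1, were the 2 genes of it beyond 2-fold. The ratios of *TNFRSF17* to wild type were -0.35, -1.90 and 1.01 in the same order, and the last was 0.97 in the authors' table and 0.86 with normexp. Between the 2 Arp8 arrays it was at -2.91. The ratios of *PRDM1* to wild type were 1.11, 0.48 and 0.51, and the first came to 0.56 with normexp. In RNA from a whole culture, fewer cells of a type and less RNA per cell cannot be told apart.

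The Arp5 KO array was compared with the wild-type array, which stands for 1 line against another. None of the 11 probes was beyond 2-fold, where 1.17% of 29910 tested probes were higher and 1.14% lower. Of bright probes, with 1000 units or more on both arrays as these 11 have, 0.292% were beyond 2-fold. *VPREB3* (-0.80) and *CD79A* (-0.56) had the lowest ratios, and these were the 2 probes outside the range from -0.38 to 0.41 that holds the middle of the bright probes (5th to 95th percentile). By construction 10% of bright probes lie outside it. The median of the 11 ratios was -0.13, against 0.04 for all tested probes and 0.03 for bright probes.

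Comparison of the array labelled Arp8 KO with wild type gave 1 probe beyond 2-fold. *VPREB3* was lower with a log2 ratio of -1.20, which is 2.30-fold. Of 29393 tested probes 1.48% were higher and 2.07% lower beyond 2-fold, and 0.634% of bright probes were beyond it in either direction. *VPREB1* (-0.61) and 1 probe of *IGLL1* (-0.51) also lay below the 5th percentile of bright probes, which was -0.45. Thus the 3 lowest values came from *VPREB3*, *VPREB1* and *IGLL1*, although the other 2 probes of *IGLL1* gave -0.01 and -0.06. The median of the 11 ratios was -0.13, against 0.01 for all tested probes and 0.03 for bright probes.

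On the array labelled Arp8 overexpression, again against wild type, none of the 11 probes was beyond 2-fold. The share of tested probes was 1.48% higher and 2.76% lower, and among bright probes 0.617% were beyond 2-fold. *CD79B* (0.55), *CD79A* (0.50) and *BTK* (0.49) lay above the 95th percentile of bright probes, which was 0.44, and 1 probe of *IGLL1* (-0.84) lay below the 5th, at -0.40. The median of the 11 ratios was 0.15, against 0.01 for all tested probes and 0.05 for bright probes.

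The 2 Arp8 arrays were also compared with each other, without the wild-type array. *VPREB3* was lower on the array labelled Arp8 KO than on the array labelled Arp8 overexpression, at -1.24, the 1 probe of 11 beyond 2-fold. The background was 0.938% higher and 0.925% lower of 29201 tested probes, and 0.459% of bright probes. *VPREB1* (-0.75), *CD79A* (-0.63), *LYN* (-0.56) and *BTK* (-0.53) lay below the 5th percentile of bright probes, which was -0.42. Of the 11 ratios 10 were below 0, but the share of all probes below 0 was not counted. Among the 10, *SYK* (-0.16), *BLNK* (-0.07) and 2 probes of *IGLL1* (-0.06 and -0.03) were within the scanner's error of 0.20. The last of these came to 0.05 with normexp. The median of the 11 ratios was -0.37, against 0.01 for all tested probes and -0.01 for bright probes.

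**Figure D2:**
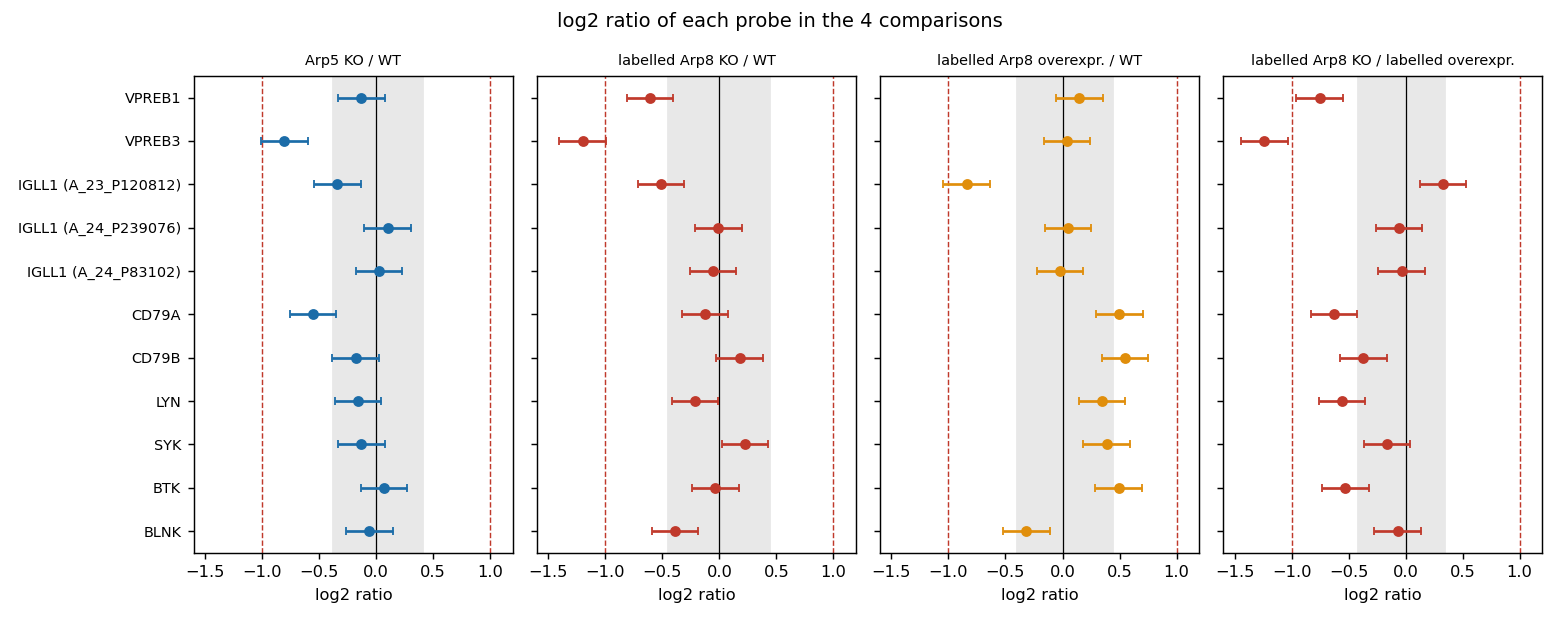
Log2 ratio (x axis) of each of the 11 probes (y axis) in the 4 comparisons, with the error of 0.20 from the scanner software as bars. The grey band runs from the 5th to the 95th percentile of all bright probes, dashed lines mark 2-fold, and *VPREB3* lies past the line in the 2 panels of the array labelled Arp8 KO.

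*VPREB3* and the genes of the surrogate light chain, *VPREB1* and *IGLL1*, were examined one by one. *VPREB3* gave 10010 units on the wild-type array, 5641 on the Arp5 KO array, 4411 on the array labelled Arp8 KO and 10447 on the array labelled Arp8 overexpression. Thus the arrays labelled Arp5 KO and Arp8 KO were low and the other 2 high, and the gap between the higher of the low pair and the lower of the high pair was 0.80 (log2). The 2 high arrays differed by 0.04, within the scanner's error, and the sign of that difference turned with quantile normalization (-0.02), in the authors' table and with normexp. A gap of at least 0.5, with the same pair lower, was found for 17 of 12004 bright probes, or 0.142%, and for no other member. That rule was set after the values of *VPREB3* had been seen.

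*VPREB1*, which pairs with the IGLL1 protein, gave 37374 units on the wild-type array, 33610 on the Arp5 KO array, 24832 on the array labelled Arp8 KO and 42063 on the array labelled Arp8 overexpression. Its arrays came in the same order as for *VPREB3*. The gaps between the 3 higher arrays were 0.13 and 0.15, within the error of 0.20, while the array labelled Arp8 KO lay 0.48 below the next one.

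The 3 probes of *IGLL1* were designed for the same transcript and did not give the same picture. Probe A_23_P120812 gave 81443 units on the wild-type array, 63325 on the Arp5 KO array, 57761 on the array labelled Arp8 KO and 46232 on the array labelled Arp8 overexpression. It was highest in wild type, and the array labelled Arp8 overexpression was lowest, with a log2 ratio of -0.84. Probe A_24_P239076 stayed between 129232 and 136288 units and probe A_24_P83102 between 136612 and 140829 units. Their ratios in the 4 comparisons ran from -0.06 to 0.10, all within the scanner's error, and several of them changed sign with the scaling. Both probes are over 100000 units, where ratios of all probes were small. On that range the median size of the log2 ratio was 0.09 for the array labelled Arp8 KO over wild type, against 0.18 for probes from 1000 to 10000 units. For *IGLL1* the data therefore give no single direction.

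The signal chains CD79A and CD79B form the dimer that passes the signal on. *CD79A* gave 18833 units on the wild-type array, 12612 on the Arp5 KO array, 17443 on the array labelled Arp8 KO and 27035 on the array labelled Arp8 overexpression. Arp5 KO was thus the low end and the last array the high end, and the 2 between them differed by 0.13, within the error of 0.20. From the lowest to the highest array *CD79A* spanned 1.05 (log2). *CD79B* gave 12501 units on the wild-type array, 10854 on the Arp5 KO array, 14305 on the array labelled Arp8 KO and 18559 on the array labelled Arp8 overexpression. Arp5 KO and labelled Arp8 overexpression were again the ends. The log2 ratios of *CD79B* to wild type were -0.18 in Arp5 KO and 0.18 on the array labelled Arp8 KO, each within the scanner's error.

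The kinases *LYN* and *SYK* are the members measured by 10 spots on each array. *LYN* gave 5150 units on the wild-type array, 4542 on the Arp5 KO array, 4496 on the array labelled Arp8 KO and 6654 on the array labelled Arp8 overexpression. Its 10 spots on the array labelled Arp8 overexpression, from 6190 to 7169 units, all lay above the 10 wild-type spots, from 4918 to 5666. The log2 ratio was 0.35 with an SD over spots of 0.03. The arrays labelled Arp5 KO and Arp8 KO lay 0.05 apart, and their spots overlapped. *SYK* gave 11659 units on the wild-type array, 10489 on the Arp5 KO array, 13767 on the array labelled Arp8 KO and 15497 on the array labelled Arp8 overexpression. In units its spots did not overlap between any 2 of the 4 arrays. After scaling, the wild-type and Arp5 KO spots overlapped for both kinases. How often spots of other repeated probes lie apart in this way was not counted. The separation is therefore not read as particular to *LYN* and *SYK*. *SYK* had log2 ratios to wild type of -0.13, 0.22 and 0.39 and SDs over spots of 0.03, 0.03 and 0.05. Repeated spots share the RNA and the labelling reaction, so this spread covers the array surface and not the cultures.

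**Figure D3:**
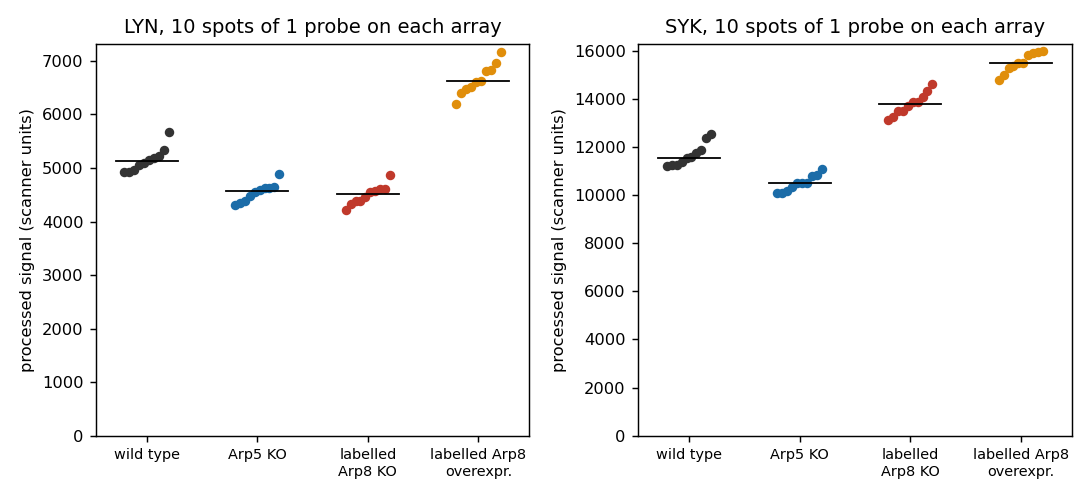
Processed signal (y axis, scanner units) of the 10 spots of the *LYN* probe and of the *SYK* probe on each array (x axis), each point a spot and each line the median. The spots of the array labelled Arp8 overexpression, from 6190 units for *LYN* and from 14770 units for *SYK*, lie above those of the other 3 arrays.

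*BTK*, the Tec family kinase, gave 8273 units on the wild-type array, 8545 on the Arp5 KO array, 8168 on the array labelled Arp8 KO and 11832 on the array labelled Arp8 overexpression. Gaps between the first 3 were 0.04 and 0.07, and the last was 0.42 above the next. The adaptor *BLNK* gave 4925 units on the wild-type array, 4647 on the Arp5 KO array, 3808 on the array labelled Arp8 KO and 4016 on the array labelled Arp8 overexpression. Both Arp8 arrays were below the other 2, with log2 ratios to wild type of -0.39 and -0.32, and the 2 Arp8 arrays lay 0.07 apart.

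Across the 11 probes, the array labelled Arp8 overexpression was the highest of the 4 for 7 probes, where it was the highest for 29.6% of 12004 bright probes. The array labelled Arp8 KO was the lowest for 7 of the 11 probes, against 24.2% of bright probes. The gap to the next array was under the scanner's error for 3 of the first 7 probes and for 5 of the second 7. The first count was 6 with quantile normalization, in the authors' table and with normexp, and the second was 6 without scaling and with normexp. *VPREB1*, *VPREB3*, *CD79A*, *CD79B*, *LYN*, *SYK* and *BTK* were highest on the array labelled Arp8 overexpression, while *BLNK* and 1 probe of *IGLL1* were highest in wild type and the other 2 probes of *IGLL1* in Arp5 KO. For *VPREB3* the lead over wild type was the 0.04 whose sign turned with the processing. The 5 genes of signal chains and kinases had ratios between 0.35 and 0.55 on the array labelled Arp8 overexpression over wild type. Each kept its sign under all 6 scalings and filters run on single probes. *LYN* (0.35) and *SYK* (0.39) lay within the range of -0.40 to 0.44 that holds the middle of the bright probes. The adaptor *BLNK* went the other way in this comparison, at -0.32.

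The other genes of the pathway were read from 6 lists of 118 genes, of which 106 have a named probe. Heavy chains and most other immunoglobulin genes have no named probe here, so the heavy chain of the receptor could not be read. Across the lists 3 probes were higher and 3 lower beyond 2-fold in Arp5 KO, of 147 tested, which is 2.04% each where all probes gave 1.17% and 1.14%. The array labelled Arp8 KO over wild type gave 4 higher and 4 lower of 148, 2.70% each against 1.48% and 2.07%. The array labelled Arp8 overexpression over wild type gave 6 higher and 0 lower of 146, with 4.11% higher against 1.48% of all probes, and 2.76% of all probes lower. Between the 2 Arp8 arrays 0 probes were higher and 8 lower of 147, with 5.44% lower against 0.925%, and 0.938% of all probes higher. The medians of the lists together were -0.10, 0.00, 0.06 and -0.09 in this order of comparisons, against 0.04, 0.01, 0.01 and 0.01 for all tested probes. In all, 16 genes were beyond 2-fold in at least 1 comparison. Many of their probes are dim, and of 56 log2 ratios beyond 2-fold among members, target genes, listed genes, markers, similar genes and neighbours, 27 fell under 2-fold with normexp. Over all tested probes, those beyond 2-fold numbered 693, 1045, 1258 and 544 in the same order of comparisons. With normexp these numbers were 178, 335, 352 and 149.

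Among the co-receptors, *CD22*, which dampens receptor signaling, gave 1821 units on the wild-type array, 1074 on the Arp5 KO array, 537 on the array labelled Arp8 KO and 1173 on the array labelled Arp8 overexpression. Its log2 ratio on the array labelled Arp8 KO was -1.78 to wild type and -1.12 to the array labelled Arp8 overexpression. *FCRLA*, an Fc receptor-like protein of B cells, was lower on the array labelled Arp8 KO than on the array labelled Arp8 overexpression on both of its probes beyond 2-fold (-1.11 and -1.18). *CD38* was lower in the same comparison at -1.02, a value that came to -0.99 in the authors' table. *PTPRC*, which encodes the phosphatase CD45, gave 69.0 units on the wild-type array, 103 on the Arp5 KO array, 203 on the array labelled Arp8 KO and 245 on the array labelled Arp8 overexpression, with log2 ratios of 1.54 and 1.81 for the last 2. With normexp the first of these fell just under 2-fold. *FCGR2B* (1.35 on the array labelled Arp8 overexpression) and *FCRL2* (1.87 in Arp5 KO) were under 100 units on every array, and with normexp they came to 0.69 and 0.22. Of the 22 probes of this list 12 were tested in Arp5 KO and on the array labelled Arp8 KO over wild type, with medians of -0.14 in both and 3 and 5 probes above 0. The other comparisons tested 11 probes each. Their median was 0.46 on the array labelled Arp8 overexpression over wild type, with 9 above 0, and -0.35 between the 2 Arp8 arrays, with 1 above 0, against 0.01 for all tested probes in both.

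Of the other Src, Tec and Syk family kinases, *LCK* and *BLK* were beyond 2-fold, both lower on the array labelled Arp8 KO. *LCK*, a Src family kinase best known from T cells, was at 1390 units in wild type and 528 on that array, a log2 ratio of -1.41. *BLK*, the Src family kinase of B cells, gave 5932 units on the wild-type array, 4348 on the Arp5 KO array, 3652 on the array labelled Arp8 KO and 8486 on the array labelled Arp8 overexpression. Its log2 ratio between the 2 Arp8 arrays was -1.21, and its array order was that of *VPREB3*. The lowest and highest probes of this list in the other comparisons were under 100 units.

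Of 20 adaptors with a probe 18 were tested. *DAPP1*, an adaptor of phosphoinositide signaling, was lower beyond 2-fold on the arrays labelled Arp5 KO and Arp8 KO, falling from 104 units on the wild-type array to 30.4 on the Arp5 KO array and 26.7 on the array labelled Arp8 KO. Its log2 ratios were -1.75 and -1.98, and between the 2 Arp8 arrays it was -1.54. The first and the last came to -0.94 and -0.76 with normexp. *TIRAP* was higher on the array labelled Arp8 overexpression on 1 probe of 9.90 units in wild type (1.02), which was under 2-fold in the authors' table (0.97) and came to 0.23 with normexp, and its other probe gave 0.85. Of the 39 downstream effectors with a probe 35, 36, 35 and 36 were tested in the 4 comparisons. They include phospholipase C, phosphoinositide kinases, RAS activators and MAP kinases, and 0 of those tested were beyond 2-fold. Among probes of that list well above background on both arrays, the ends were 1 of 3 probes of *PIK3CD*, the catalytic subunit p110 delta, with 0.79 on the array labelled Arp8 overexpression over wild type, and 1 of 3 probes of *RASGRP1* with -0.59 on the array labelled Arp8 KO over wild type. A probe of *VAV2*, not well above background in wild type, had a lower bound of 0.87 in the latter comparison.

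Among the inhibitors, *UBASH3B*, a phosphatase that dampens receptor signaling, was lower on the array labelled Arp8 KO over wild type (-1.32), from 706 to 286 units. *SLA* and *SLA2*, adaptors that lower receptor levels, were higher on both Arp8 arrays over wild type, with log2 ratios of 1.32 and 2.51 on 1 of 2 probes of *SLA* and 1.91 and 1.05 for *SLA2*. The other probe of *SLA* gave 0.25 and 0.20. Between the 2 Arp8 arrays *SLA* was at -1.19 on the first probe and 0.04 on the other. Both genes were under 75 units on every array, and all 5 values beyond 2-fold came under it with normexp. *LAX1* (1.17 on 1 of 2 probes, 0.65 on the other) was higher and *DOK2* (-1.56) lower in Arp5 KO, where *SLA2* was at 1.12. With normexp these 3 came to 0.63, -0.36 and 0.19. *JCHAIN*, the joining chain of secreted antibodies and the 1 immunoglobulin-list gene with a named probe, gave 134 units on the wild-type array, 43.1 on the Arp5 KO array, 273 on the array labelled Arp8 KO and 1095 on the array labelled Arp8 overexpression. Relative to wild type its log2 ratios were -1.61, 1.01 and 3.01, and the second was 0.99 in the authors' table. Between the 2 Arp8 arrays it was at -2.0. With normexp the first fell just under 2-fold and the second came to 0.79.

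**Figure D4:**
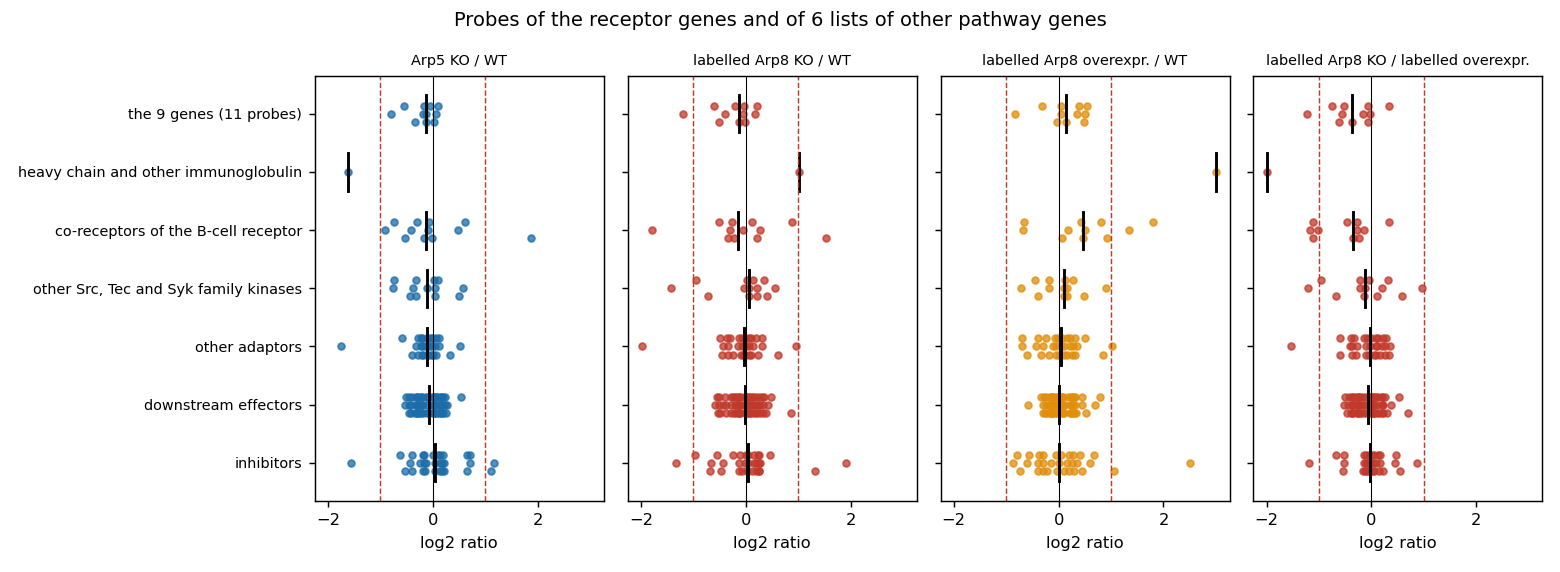
Log2 ratio (x axis) of every tested probe of the 9 receptor genes and of the 6 lists (y axis) in the 4 comparisons, each point a probe and each black line the median of its list, dashed lines at 2-fold. No point of the downstream effectors passes the dashed lines, and *JCHAIN*, alone in its list, lies furthest out at 3.01.

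The genes whose levels moved most like a member over the 4 arrays were searched among 19314 named probes, each of them well above background on every array. The measure was the root mean square difference of the centred log2 levels, and the search was made for the 2 members that spanned at least 1 (log2), *VPREB3* and *CD79A*. Closest to *VPREB3* were *CNTN2* (0.06), *CLN6* (0.09) and *SNRNP40* (0.09), and 5 probes came within 0.1. *CLN6* gave 1896 units on the wild-type array, 1233 on the Arp5 KO array, 844 on the array labelled Arp8 KO and 1972 on the array labelled Arp8 overexpression. Closest to *CD79A* were *PHLDB2* (0.03), *NOL4* (0.03) and *PHACTR1* (0.05), with 20 probes within 0.1. *PHLDB2* gave 2396, 1591, 2288 and 3595 units in the same order of arrays. Over 4 arrays such likeness is a description.

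*VPREB1*, *VPREB3* and *IGLL1* lie on chromosome 22. The order of genes in the RefSeq table was used to look at their neighbours, a choice made after the values had been seen. The 7 nearest genes around *VPREB3* with a named probe, apart from *IGLL1*, have 8 probes. Their log2 ratios on the array labelled Arp8 KO over wild type ran from -0.32 for *SMARCB1* to 0.27 for *ZNF70*, against -1.20 for *VPREB3*. In Arp5 KO they ran from -0.23 to 0.52, against -0.80. Between the 2 Arp8 arrays they ran from -0.80 to -0.06, all below 0, against -1.24. On the array labelled Arp8 overexpression over wild type they ran from -0.15 to 0.87, against 0.04. None of the 8 probes was beyond 2-fold in any of the 4 comparisons.

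**Figure D5:**
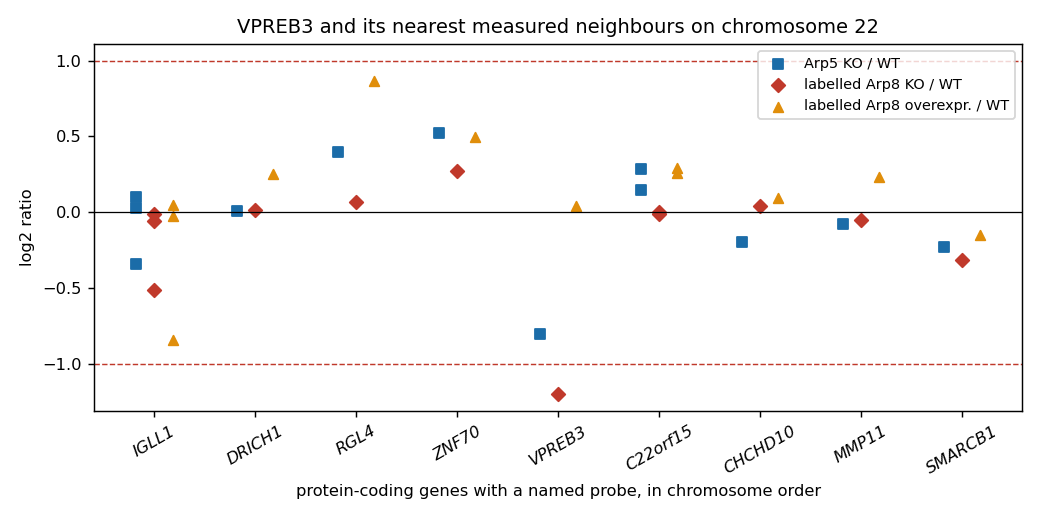
Log2 ratio to wild type (y axis) of *VPREB3* and of the 4 nearest protein-coding genes with a named probe on each side, in the order of the genes and not to scale (x axis), 1 point per probe and comparison. The points of *VPREB3* for Arp5 KO and labelled Arp8 KO lie at -0.80 and -1.20, below every point of its neighbours in the same comparison.

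Next to *IGLL1* among genes with a named probe lies *BCR*, the breakpoint cluster region gene, which is not the B-cell receptor. Its 7 probes had log2 ratios between 0.15 and 0.48 on the array labelled Arp8 overexpression over wild type, and between -0.12 and 0.25 on the array labelled Arp8 KO. *GNAZ*, 3 genes from *IGLL1* in this order, was lower beyond 2-fold on the array labelled Arp8 overexpression on 1 of its 2 probes, at 2931 units in wild type and 1408 on that array (-1.08). Around *VPREB1* the 11 measured probes of 7 neighbours ran from -0.60 to 0.15 on the array labelled Arp8 KO over wild type, and the lowest was *ZNF280A* at under 50 units.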

How the data were processed

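Expression was measured in Nalm-6 cells on Agilent single-color arrays, 1 per group. The authors deposited, per array, the output of Agilent Feature Extraction (10.5.1.1 per the file headers), in which the processed signal is a linear intensity that the software had corrected for background and for trends across the array, with no scaling between arrays. Marks of outlier spots and of signals well above background, other columns used here, were deposited in the same output. The authors' series table was found to hold the same intensity times 1 factor per array (0.847, 0.838, 0.825 and 0.807 for wild type, Arp5 KO, labelled Arp8 KO and labelled Arp8 overexpression), with medians of 127, 128, 122 and 119 units. The source of that factor is not given in the sources used here.

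From these intensities log2 values relative to the array's 75th percentile of non-control spots were computed. Outlier spots were left out and spots of a probe averaged. Where the dimmer array was not well above background, it was set to no less than the lowest signal of probes that were (7.76, 6.90, 9.44 and 8.87 units in the same order). Genes were named through the probe's accession and the RefSeq gene table (GRCh38.p14), which named 26222 of 41000 probes (64.0%). The header names another build, so the table served for names and gene order only. Named genes were all 9 members, *ACTR5* and *ACTR8*, listed genes beyond 2-fold in any comparison, the highest and lowest gene of each list and comparison, and the 3 genes most like a member spanning at least 1 (log2). The members and lists were chosen with earlier results of these data known. Protein motifs were planned, but no protein table was used here. The normexp alternative used the median signal, as no mean signal column was used, with an offset of 50 in limma 3.58.1 (R 4.3.3). Other steps used Python 3.11.15, numpy 2.4.6, pandas 2.3.3 and matplotlib 3.10.9. The fold calls were tested on simulated data, but no value from that test is given here and no result rests on it. Alternatives were other scalings, the authors' table, normexp, outlier spots kept, other filters on dim probes and other fold thresholds.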

Additional observations from a re-analysis of the deposited data

Results flagged for a closer look

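*CD79B* and *SYK* lay on opposite sides of wild type on the arrays labelled Arp5 KO and Arp8 KO, with the same signs under all 6 alternatives run on single probes. *CD79B* had a log2 ratio to wild type of -0.18 in Arp5 KO and of 0.18 on the array labelled Arp8 KO. *SYK* had -0.13 and 0.22. Both ratios of *CD79B* and the first of *SYK* were within the scanner's error of 0.20. Each exceeded the median SD of repeated spots of other probes, 0.03, but *CD79B* has 1 spot of its own and that SD holds no variation between cultures. The comparisons share the wild-type array, each group has 1 array, and the difference between the lines was not tested.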

How the results depend on the processing

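No paired analysis was possible because each group has 1 array, and for the same reason no array could be left out. The 44 log2 ratios of the 11 probes kept their sign under all 6 alternatives run on single probes, apart from 7 of at most 0.10 in size. Of 56 ratios beyond 2-fold among members, targets, listed genes, markers, similar genes and neighbours, none changed sign; 4 fell under 2-fold with the 75th percentile of probes well above background on all arrays, 4 in the authors' table, 2 with quantile normalization and 27 with normexp. *VPREB3* stayed beyond 2-fold in both comparisons that called it, except at 3-fold. The median log2 ratio of all probes well above background was at most 0.04 in size under every scaling. Its sign turned in places, for labelled Arp8 overexpression over wild type from 0.01 to -0.03 in the authors' table. The median of the 11 ratios moved by more than the SD of repeated spots in these cases, all with the same sign. In Arp5 KO over wild type it was -0.18 with quantile normalization and -0.17 in the authors' table. In labelled Arp8 KO over wild type it was -0.16 with quantile normalization and with normexp. In labelled Arp8 overexpression over wild type it was 0.10 with quantile normalization, in the authors' table and with normexp. Between the 2 Arp8 arrays it was -0.32 with normexp. At 1.5-fold the probes called were 1, 2, 1 and 3 of 11 in Arp5 KO, labelled Arp8 KO and labelled Arp8 overexpression over wild type and between the Arp8 arrays, where 8.89%, 12.3%, 13.3% and 8.46% of all tested probes were. At 3-fold they were 0 in labelled Arp8 KO over wild type and 0 between the Arp8 arrays. Of all tested probes, 0.983% and 0.329% were beyond 3-fold in these 2 comparisons. The cause of these moves was not tested, apart from the fold itself. Bright-probe shares, the gap rule for *VPREB3* and the neighbours were added after seeing the data. Signal over background does not limit the 11 probes. Among the other pathway genes, probes under 100 units rest on little signal, and many of their ratios were smaller with normexp. That alternative changed the signal column, the background correction and the offset together, and these were not tested apart.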
